A study of Spirodela polyrhiza and Pistia stratiotes and Colocasia esculenta with 79 samples.

Results

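Transcripts that peaked in the petiole were described in Pistia stratiotes, the water lettuce, a free-floating herb of the arum family. For each transcript whose gene identifier had a single row in the table, the regional level was the mean of log2(TPM + 1) over the libraries of a region. TPM is a relative abundance, scaled to transcript length and to a common total per library. The score of a transcript was its level in Petiole minus the highest level among the other 4 regions. Transcripts with a score of at least 0.7 and a mean of at least 5 TPM in Petiole numbered 234, and the 150 with the highest scores are the members described here. They stand among 13850 identifiers with a single row and 19647 transcripts in the Pistia table, and among 70253 transcripts in the tables of all 4 species of the series. The choice used every Pistia library, so the difference between Petiole and the other regions is given as a description, without a test.

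The series holds 79 libraries of poly-A RNA from dissected organs of 2 duckweeds, Pistia and taro. Pistia was represented by Petiole, Stolon, Stem, Basal and Apical, with 4 libraries each and 20 in all. The labels give Basal and Apical without naming the organ, and the pair is treated here as the base and the tip of the leaf blade. The plants carried no stated mutation or treatment and were grown at 22 °C under fluorescent light, and no clone, age or number of plants per library was given. The labels call the replicates biological without saying whether they came from separate plants, so p-values measure the spread between these libraries.

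A petiole is the stalk that joins a leaf blade to the stem. It carries the vascular strands that supply the blade, and it positions the blade by elongation and bending. The leaves of water lettuce are thick and spongy towards the base, with air-filled tissue (aerenchyma) that keeps the rosette afloat. The stolon is a horizontal shoot that connects a rosette to its daughter, and the stem is the short axis that bears leaves, stolons and roots. No gene names stand beside the identifiers in the files, so no function is given for any member and the region labels could not be set against marker genes. For the same reason no sequence is shown.

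Libraries of Pistia summed to between 998999 and 999582 TPM, and read depth is unknown. Petiole libraries resembled each other most, with a mean Pearson r of 0.954 on log2(TPM + 1) across transcripts, and stood nearest to Stolon at 0.927. They were further from Basal at 0.874, Stem at 0.850 and Apical at 0.816. Apical replicate 4 stood apart from the rest, with a highest r of 0.889 to any other library. Stem replicate 4 held less of the members than the other Stem libraries, as given below. Median-of-ratios size factors, which estimate a common scale from the bulk of transcripts, were 1.06 to 1.08 in Petiole, 1.04 to 1.07 in Stolon, 1.16 to 1.25 in Stem, 0.818 to 0.880 in Basal and 0.802 to 1.03 in Apical. On the deposited scale a transcript with equal rescaled levels therefore reads somewhat higher in Petiole than in every blade library. It reads somewhat lower in Petiole than in every Stem library. With the libraries rescaled the rule chose 131 of the same 150 members.

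The members were a small set of transcripts that took up a sizeable part of the petiole transcriptome. They made up 4.15%, 3.64%, 4.48% and 3.86% of all TPM in Petiole libraries 1 to 4. The share was 0.946% to 1.16% in Stolon, 0.549% to 1.06% in Stem, 0.697% to 1.13% in Basal and 0.410% to 0.725% in Apical. The lowest Petiole library was thus well above the highest library of any other region, as the choice of members implies. In means, the share was 4.03% ± 0.363 in Petiole, 1.06% ± 0.0918 in Stolon, 0.918% ± 0.247 in Stem, 0.868% ± 0.188 in Basal with 0.521% ± 0.143 in Apical (mean ± SD of 4 libraries). In bulk RNA, fewer cells of a type and less RNA per cell cannot be told apart.

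**Figure D1:**
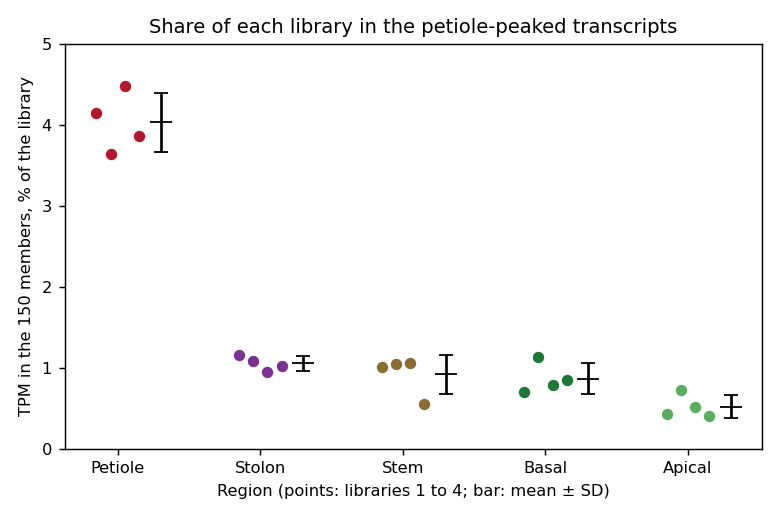
The vertical axis gives the TPM of the 150 members as a percent of each library, and the horizontal axis the 5 regions. Points are libraries 1 to 4 from left to right and the bar beside them is the mean ± SD. The Petiole libraries lie between 3.64% and 4.48%, and Stem replicate 4, at 0.549%, lies below the other Stem libraries.

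Most members were present elsewhere at a lower level rather than restricted to the petiole. The median of their regional means was 48.9 TPM in Petiole, against 9.15 in Stolon, 10.2 in Stem, 9.25 in Basal and 6.26 in Apical. Only 4 members had a mean under 1 TPM in all the regions other than Petiole, namely Pis11539.t1, Pis05363.t1, Pis04805.t1 and Pis12781.t1, the last of which lies outside the naming rule and was picked on its values. In Petiole 45 members averaged 100 TPM or more, while 27 averaged under 10. The 5 most abundant held 49.2% of the members' TPM in Petiole, so the summed share follows a few transcripts. Without those 5 the members summed to 18289 to 22011 TPM in Petiole, against 5802 to 6609 in Stolon, 2833 to 5584 in Stem, 4108 to 4993 in Basal and 1759 to 3335 in Apical.

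For 72 of the 150 members every Petiole library lay above all 16 libraries of the other regions, while 78 overlapped. Among all transcripts tested 1.16% had no such overlap, a figure that belongs to the contrast the rule used and is printed as background alone. The library that reached highest outside Petiole came from Stem for 36 of the 78, from Stolon for 21, from Basal for 14 and from Apical for 7.

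Scores ran from 3.33 to 0.924 with a median of 1.34. The highest belonged to Pis09119.t1, with 56.1, 34.3, 18.8 and 17.8 TPM in Petiole libraries 1 to 4 and at most 4.89 TPM in any other library. It averaged 31.7 ± 17.9 TPM in Petiole, 1.06 ± 0.553 in Stolon, 2.26 ± 1.83 in Stem, 0.252 ± 0.169 in Basal and 0.101 ± 0.0986 in Apical, as mean ± SD of 4 libraries. No library outside Petiole reached its lowest Petiole value. Pis15046.t1 had 520.6, 500.2, 334 and 239 TPM in Petiole and averaged 45.2 ± 22.4 TPM in Stolon, 46.2 ± 20.6 in Stem, 42.2 ± 21.8 in Basal and 2.72 ± 3.64 in Apical. Its levels in Stolon, Stem and Basal did not differ beyond their spread, and Apical stood lowest. Pis05111.t1 had 131, 111, 152 and 107 TPM in Petiole, and it was listed at 0 in 3 of 4 Stolon libraries, where it averaged 0.107 TPM. In Stem it averaged 16.3 ± 2.27 TPM, in Basal 6.89 ± 2.75 and in Apical 0.928 ± 0.879, a graded series with Stolon at the bottom.

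The other members with the highest scores fell into a few kinds of profile. Pis11539.t1 and Pis05363.t1 were low transcripts that were nearly absent outside the petiole. Pis11539.t1 had 20.5, 5.97, 17.9 and 4.19 TPM in Petiole and was listed at 0 in all Stolon and Apical libraries, 2 of 4 Stem libraries and 3 of 4 Basal libraries. Pis05363.t1 had 13.5, 5.56, 1.11 and 7.38 TPM in Petiole and was listed at 0 in 14 of the other 16 libraries. Pis04462.t1, Pis11701.t1, Pis03378.t1 and Pis09949.t1 had their lowest mean in Stolon and were present in the blade. In the comparison of Stolon with the blade given below, Pis03378.t1 and Pis09949.t1 were not called. Their log2 differences were -0.42 (limma adjusted p = 0.36) and -0.69 (limma adjusted p = 0.14). Pis04462.t1 averaged 155 ± 49.7 TPM in Petiole, 3.58 ± 1.31 in Stolon, 10.6 ± 5.15 in Stem, 24.4 ± 8.63 in Basal and 19.8 ± 10.8 in Apical. Pis09949.t1 averaged 93.7 ± 47.9 TPM in Petiole, and its other regional means lay between 7.30 TPM in Stolon and 15.9 in Basal. Pis11701.t1 averaged 39.3 ± 23.7 TPM in Petiole and 0.709 ± 1.00 in Stolon, and Pis03378.t1 averaged 19.9 ± 8.48 and 1.02 ± 0.673. Pis04460.t1 and Pis15045.t1, by contrast, were lowest in Apical. Pis04460.t1 averaged 460.5 ± 133 TPM in Petiole, 73.7 ± 39.7 in Stolon, 36.8 ± 13.3 in Stem, 105 ± 97.2 in Basal and 5.23 ± 2.77 in Apical, and its Basal libraries ranged from 35.5 to 247 TPM. Pis15045.t1 averaged 89.5 ± 70.1 TPM in Petiole and 0.283 ± 0.566 in Apical, with 184 TPM in Petiole replicate 1 and 29.6 in Petiole replicate 3.

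The most abundant members were Pis03767.t1 and Pis03770.t1. Pis03767.t1 had 4937, 3354, 8842 and 5832 TPM in Petiole libraries 1 to 4 and Pis03770.t1 had 4507, 3500.3, 8270 and 6262. Both were lowest in Petiole replicate 2 and highest in Petiole replicate 3. Pis03767.t1 had 408, 9.76, 341 and 51.7 TPM in Stolon, and Pis03770.t1 had 424, 19.5, 263 and 36.9, so that Stolon libraries 2 and 4 were low for both. The pair averaged 1180 ± 672 and 1159 ± 493 TPM in Stem, 1335 ± 824 and 1514 ± 939 in Basal, and 719 ± 440.1 and 906 ± 494 in Apical. Basal replicate 1, at 223 and 259 TPM, and Apical replicate 1, at 212 and 281 TPM, were the lowest of their regions for both.

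Pis09073.t1, Pis03161.t1 and Pis10252.t1 followed in abundance, and in these Stolon came next. Pis09073.t1 averaged 3195 ± 475 TPM in Petiole, 1437 ± 300.0 in Stolon, 794 ± 226 in Stem, 449 ± 217 in Basal and 249 ± 96.7 in Apical. Pis03161.t1 had a steeper profile, with 2803 ± 552 TPM in Petiole, 1323 ± 238 in Stolon, 255 ± 72.1 in Stem, 143 ± 61.6 in Basal and 11.8 ± 10.1 in Apical. Pis10252.t1 was the flattest of the 5, at 2437 ± 756 TPM in Petiole, 1151 ± 128 in Stolon, 1013 ± 192 in Stem, 671 ± 161 in Basal and 604 ± 139 in Apical.

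Which region came next after Petiole divided the members. It was Stolon for 56 members, Stem for 41, Basal for 45 and Apical for 8. In shares, these were 37.3% of the members for Stolon, 27.3% for Stem, 30% for Basal and 5.33% for Apical. Among the 9762 tested transcripts with a single row and a mean of at least 5 TPM in Petiole, the highest of these 4 regions was Stolon for 27.9%, Stem for 44.6%, Basal for 9.83% and Apical for 17.7%. The rule names no next region, but it leaves out transcripts that peak in a region other than Petiole, which the comparison transcripts include. Past the same minimums 2264 transcripts peaked in Stem and 35 in Basal. The 2 sets of shares are therefore not like for like, and no test was made of their difference. Members next in Stem had the highest median score, 1.68, and those next in Stolon the lowest, 1.12. The lowest region was Apical for 63 members, Stolon for 53, Stem for 30 and Basal for 4. Means under 1 TPM were found for 21 members in Stolon, 11 in Stem, 15 in Basal and 31 in Apical. Members listed at 0 in all 4 libraries numbered 4 in Stolon, 0 in Stem, 1 in Basal and 6 in Apical.

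**Figure D2:**
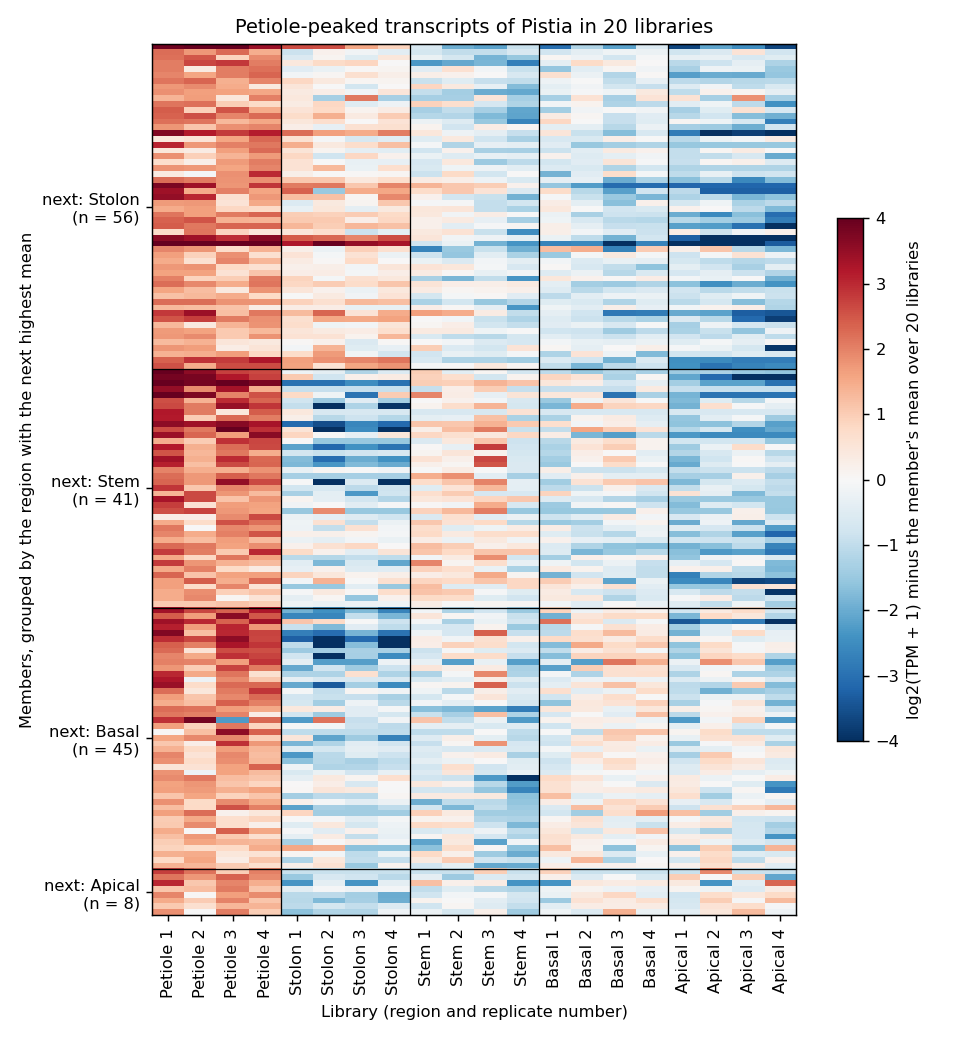
Each row is a member and each column a library, with Petiole at the left. Colour gives log2(TPM + 1) minus the member's mean over the 20 libraries, limited to the range -4 to 4 for display, and rows are grouped by the region with the next highest level (56 Stolon, 41 Stem, 45 Basal and 8 Apical). Petiole columns are mostly red, with a blue cell in replicate 3, many members of the Stem and Basal groups are blue in Stolon, and Stem replicate 4 is paler or bluer than the other Stem columns.

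The limit of the set was the rank of 150 and not the minimum score, so the members just inside and just outside it differ little. The last inside were Pis12962.t1, Pis06885.t1 and Pis12299.t1, with scores of 0.930, 0.928 and 0.924 and Petiole means of 47.6, 87.0 and 56.5 TPM. The first outside were Pis17637.t1, Pis05606.t1 and Pis09727.t1, with scores of 0.924, 0.923 and 0.920 and Petiole means of 188, 5.57 and 1684 TPM. Pis09727.t1, although abundant in Petiole, averaged 877 ± 165 TPM in Stolon.

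The members differed among themselves in how far the libraries of a region agreed. The median SD of log2(TPM + 1) over the 4 Petiole libraries was 0.57 for the members and 0.20 for the 9762 tested single-row transcripts with a Petiole mean of at least 5 TPM. In the other regions, with that minimum set on the comparison transcripts in the region itself, it was 0.45 for the members and 0.18 for those transcripts in Stolon, 0.62 and 0.16 in Stem, 0.59 and 0.22 in Basal, and 0.62 and 0.46 in Apical. A wider spread of the members was thus seen in every region. Outside Petiole, however, the members did not have to meet that minimum. The median of their means there ran from 6.26 TPM in Apical to 10.2 in Stem, and 31 members averaged under 1 TPM in Apical. The sets are therefore not like for like in level outside Petiole, and how far the spread follows level was not tested. In Petiole the steadiest were Pis06885.t1, with 86.7, 85.9, 92.9 and 82.5 TPM, Pis01685.t1, with 38.5, 39.6, 32.9 and 37.1, and Pis11318.t1, with 2513, 2044.5, 2335 and 2347. For these 3 every Petiole library lay above all others. At the other end stood Pis03820.t1, with 35.4, 67.5, 0 and 22.6 TPM, Pis10898.t1, with 1.12, 3.71, 23.3 and 9.49, and Pis04805.t1, with 13.8, 0.352, 4.81 and 2.34. The place of these 3 in the set rests on some Petiole libraries and not on all, and Pis04805.t1 was the only member that failed the filter of at least 1 TPM in at least 4 libraries, which leaves 149 members tested below.

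Petiole replicate 2 was the lowest Petiole library for 63 members and replicate 1 for 7, while replicate 1 was the highest for 50. Of all single-row transcripts tested, replicate 2 was the lowest for 26.3% and replicate 1 for 20.2%, and replicate 1 was the highest for 21.1%. A similar unevenness was seen in Stem, where replicate 4 was the lowest for 82 members and the highest for 4, against 21.9% and 29.2% of all single-row transcripts tested. Stem replicate 4 enters the Stem comparisons below, where the counts of calls are also given without it.

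The rule was also repeated without each Petiole library in turn, which gives a Petiole value that did not enter the choice. The other regions' means did enter it, so only the Petiole side of the difference is independent of the rule. Without replicates 1, 2, 3 and 4 the 150 chosen shared 130, 125, 132 and 127 transcripts with the members. The library left out lay above the highest mean of the other regions for 142, 139, 136 and 141 of the 150. The same held for 17.1%, 18.2%, 15.7% and 17.2% of all single-row transcripts that averaged 5 TPM or more over the Petiole libraries used. It lay above by at least 0.7, the score minimum, for 127, 93, 109 and 101 of the 150, where 3.35%, 3.31%, 2.67% and 2.24% of all those transcripts did. It lay above every library of the other regions for 121, 82, 108 and 100, and the share of all those transcripts was not counted for this. The median difference was 1.45, 0.96, 1.09 and 1.15 in the library left out, against 1.20, 1.44, 1.35 and 1.35 in the mean of the libraries used. The difference was thus larger in replicate 1 than in the libraries that chose the set and smaller in the other 3. These libraries come from the same experiment, and no test was made.

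**Figure D3:**
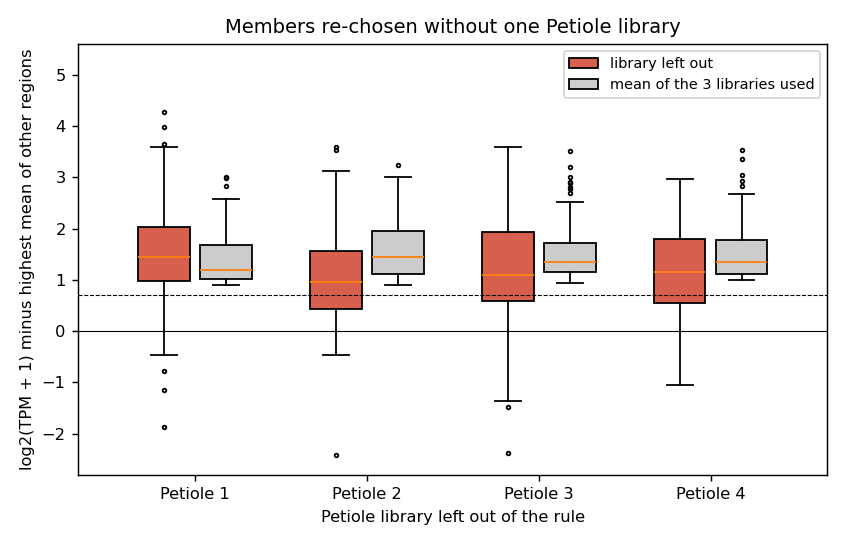
For each Petiole library left out of the rule (horizontal axis), the red box gives the difference of that library from the highest mean of the other regions on log2(TPM + 1), over the 150 transcripts chosen without it, and the grey box the same for the mean of the 3 libraries used. Boxes span the quartiles with the median as a line, whiskers reach 1.5 times the box height at most, and the dashed line marks the score minimum of 0.7. The medians of the red boxes are 1.45, 0.96, 1.09 and 1.15.

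Many members carried neighbouring identifier numbers. Of the 150, 30 had a number that directly followed or preceded that of another member, in 14 runs, and 41 lay in groups with steps of at most 3. Under the same rule, 11 of 150 stolon-peaked and 17 of 150 stem-peaked transcripts directly adjoined another of their set, and with steps of at most 3 the numbers were 26 and 24. Direct neighbours were thus 20% of the petiole-peaked, 7.33% of the stolon-peaked and 11.3% of the stem-peaked sets, given without a test. Whether the numbers follow the order of genes along the genome is not given in the sources used here. If neighbours are near-identical copies, reads could have been divided between them, and with no sequence at hand the separate levels within a group are uncertain.

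The largest group ran from Pis03766.t1 to Pis03773.t1 and held 6 members, among them the most abundant pair. Beside Pis03767.t1 and Pis03770.t1 it held Pis03769.t1, with 1287, 849, 2935 and 1597 TPM in Petiole and 253, 2.64, 174 and 11.8 in Stolon. Pis03773.t1 had 110, 78.2, 341 and 136 TPM in Petiole and 24.8, 0, 2.17 and 0 in Stolon. The same order of libraries, with replicate 3 highest and 2 lowest in Petiole and replicates 2 and 4 low in Stolon, thus appeared in 4 members of the group. Pis03766.t1 averaged 188 ± 53.0 TPM in Petiole and 31.4 ± 34.9 in Stolon, and Pis03772.t1 averaged 9.94 ± 2.06 in Petiole and was listed at 0 in every Stolon library. Pis03771.t1, which lies between them in number and is not a member, averaged 0.186 TPM in Petiole.

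The groups Pis05110.t1 to Pis05112.t1 and Pis19946.t1 to Pis19950.t1 shared that profile of high Petiole and very low Stolon. Pis05110.t1 had 139, 121, 144 and 115 TPM in Petiole, against 0.343, 0, 0.927 and 0.354 in Stolon, and Pis05112.t1 had 205, 169, 318 and 169 against 1.80, 0.290, 2.11 and 0.570. In Stem the 3 members averaged 25.1, 16.3 and 31.5 TPM, and in Basal 12.1, 6.89 and 40.6. Among Pis19946.t1, Pis19947.t1, Pis19948.t1 and Pis19950.t1, Petiole means were 71.4, 81.2, 102 and 74.9 TPM and Stolon means 0.624, 1.38, 3.76 and 1.51. All 4 were highest in Stem in replicate 3, which had 49.9, 99.5, 105 and 74.0 TPM, against 4.07 to 20.4 TPM in the other Stem libraries. Petiole replicate 1 was their highest Petiole library, at 125, 130, 160 and 120 TPM, and replicate 2 their lowest, at 21.4, 37.3, 41.2 and 30.6.

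In the groups from Pis15045.t1 and Pis15724.t1 the members kept part of their level in Stolon and were lowest in Apical or in Stem. Pis15050.t1 averaged 801 ± 214 TPM in Petiole, 312 ± 74.0 in Stolon, 74.0 ± 29.6 in Stem, 60.1 ± 39.8 in Basal and 5.03 ± 4.50 in Apical. Its neighbours Pis15045.t1, Pis15046.t1 and Pis15048.t1 were also lowest in Apical, where their means were 0.283, 2.72 and 0.903 TPM. Pis15724.t1 averaged 247 ± 107 TPM in Petiole, 52.4 ± 27.3 in Stolon and under 5 in the other regions, while its neighbour Pis15725.t1 averaged 2368 ± 672 in Petiole, 638 ± 157 in Stolon, 95.0 ± 25.3 in Stem, 522 ± 177 in Basal and 243 ± 68.1 in Apical. Stolon came next for both, and the blade was low only for Pis15724.t1. In the group around Pis09119.t1, the member with the highest score, Pis09122.t1, Pis09123.t1 and Pis09125.t1 averaged 7.63, 31.6 and 27.3 TPM in Petiole and 1.80, 14.7 and 4.95 in Stem, their next highest region. Of these, Pis09122.t1 was lowest in Stolon, at 0.183 TPM.

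Some neighbours of members fell short of the minimum score. Pis19606.t1, Pis19609.t1, Pis19611.t1 and Pis19612.t1 averaged 46.6, 35.2, 11.8 and 125 TPM in Petiole and between 1.29 and 47.5 TPM elsewhere, with Petiole replicate 4 the highest library of each. Pis19608.t1, between them, averaged 25.6 TPM in Petiole and stayed outside with a score of 0.698. Pis04461.t1, between Pis04460.t1 and Pis04462.t1, averaged 326 ± 78.9 TPM in Petiole, 222 ± 86.4 in Basal and 154 ± 124 in Apical, and had a score of 0.602. These 3 consecutive numbers thus had different profiles in the blade. The remaining pairs were Pis01243.t1 and Pis01244.t1, Pis10252.t1 and Pis10254.t1, Pis11701.t1 and Pis11702.t1, Pis12801.t1 and Pis12802.t1, Pis15809.t1 and Pis15810.t1, and Pis19018.t1 and Pis19019.t1, with Petiole means from 6.18 TPM for Pis11702.t1 to 2437 for Pis10252.t1.

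**Figure D4:**
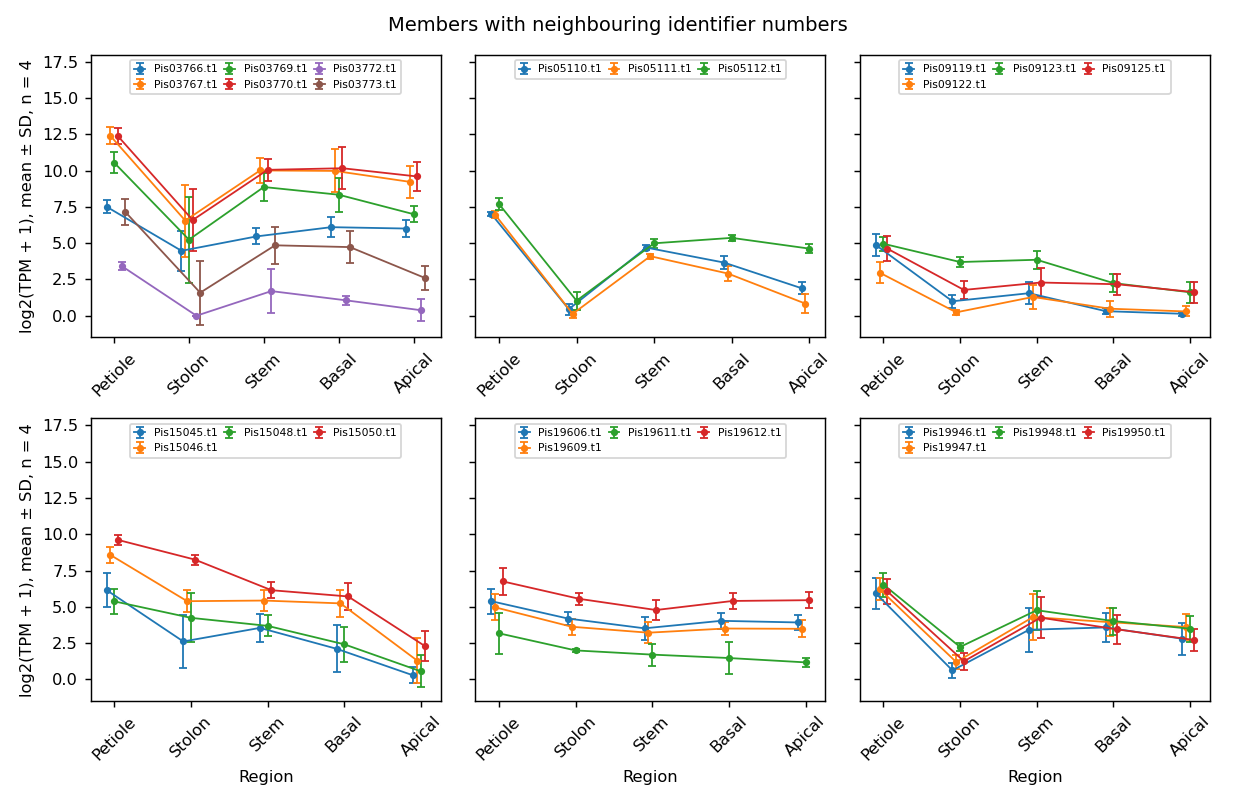
The 6 groups of at least 3 members with neighbouring identifier numbers are shown as the mean ± SD of log2(TPM + 1) over 4 libraries in each region, with a line per member and Petiole at the left of each panel. In the groups from Pis03766.t1, Pis05110.t1 and Pis19946.t1 the level dips in Stolon, whereas the group from Pis15045.t1 declines towards Apical.

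The rule set no order among the regions other than Petiole, but it capped the highest of them relative to Petiole. Their order was tested with limma over all 18727 transcripts that passed the filter, with all 20 libraries in the model. Those transcripts include ones that peak in Stem or Stolon, which the rule leaves out. The shares of members and of all transcripts given below are therefore not like for like. Calls were made where the p-value after Benjamini-Hochberg adjustment was under 0.05. Calls over all transcripts were counted in this fit alone. Counts of members with rescaled libraries, or with a library left out, therefore have no such share beside them. The first comparison set Stolon against the leaf blade, the mean of the Basal and Apical levels. Of 149 members 72 were called, 46 higher and 26 lower in Stolon, or 30.9% and 17.4%, where 38.9% and 16% of all transcripts tested were called. In both directions together the share was 48.3% of members and 54.9% of all. The median log2 difference was 0.18 for the members and 0.28 for all transcripts. With rescaled libraries 38 were higher and 30 lower, the member median was -0.06 and that of all transcripts 0.06, so the direction of the member median depended on the scale. Single members reached from -3.96 to 6.97.

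At the high end, Pis03777.t1 had 154, 286, 187 and 161 TPM in Stolon, against 1.56, 1.76, 0 and 1.55 in Basal and 0, 0, 0 and 0.636 in Apical. The log2 difference of Stolon from the blade was 6.97 (SE 0.35, limma adjusted p = 9.3e-12), and there was no overlap between the libraries. In Petiole it had 483, 489, 398 and 278 TPM. Pis03161.t1 rose by 5.15 in Stolon (SE 0.36, limma adjusted p = 7.7e-10), with 1398, 1295, 1013 and 1584 TPM against 4.27 to 217.5 TPM in the 8 blade libraries. At the low end, Pis05112.t1 fell by 3.96 (SE 0.24, limma adjusted p = 9.7e-11), with Stolon libraries at 0.290 to 2.11 TPM and blade libraries at 18.2 to 45.6. Pis03770.t1 fell by 3.29 (SE 0.74, limma adjusted p = 0.00091), and here Stolon replicates 1 and 3 overlapped the lowest blade libraries.

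The groups of neighbouring numbers were mixed in this comparison. Of 14 groups, 5 had every member called in one direction, 5 had some called in one direction and the rest not called, 1 had calls in both directions and 3 had none. Of all transcripts tested 38.9% were called higher in Stolon and 16% lower. Groups of neighbouring numbers were not counted over all transcripts, so the group counts are a description alone. In the group from Pis03766.t1 5 of 6 were lower in Stolon than in the blade, with Pis03772.t1 not called at a log2 difference of -0.72. All 3 members from Pis05110.t1 and all 4 from Pis19946.t1 were lower, with differences from -3.96 to -1.74 and from -2.58 to -1.52. In the group from Pis15045.t1 3 of 4 were called higher, with differences from 1.42 to 4.25 over all 4, and Pis15724.t1 and Pis15725.t1 were both higher, at 4.26 and 0.85. Pis04460.t1 and Pis04462.t1 went opposite ways, at 1.62 (limma adjusted p = 0.0058) and -2.27 (limma adjusted p = 8.3e-06). Pis12801.t1 and Pis12802.t1 also differed in sign, at -0.75, which was not called, and 0.97. In the group from Pis09119.t1 2 of 4 were called higher, and the differences ranged from -0.16 to 1.77. In the group from Pis19606.t1 none of 4 was called by limma, and none of their unadjusted p-values was under 0.05.

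The stem was compared with the leaf blade in the same model. Of 149 members 61 were called, 42 higher and 19 lower in Stem, or 28.2% and 12.8%, where 51.5% and 15.9% of all transcripts were called. In either direction the share was 40.9% of members and 67.4% of all. The median log2 difference was 0.30 for the members and 0.55 for all. With rescaled libraries the split was 27 higher and 26 lower, the median of all transcripts 0.13 and that of the members -0.13, so the direction of the median depended on the scale. Without Stem replicate 4, in which the members were low, 49 were higher and 10 lower. Pis10873.t1 had 22.1, 18.2, 16.9 and 9.16 TPM in Stem, against 0.0754 to 2.11 in Basal and 0 in every Apical library. Its log2 difference was 3.72 (SE 0.35, limma adjusted p = 1.9e-08). Pis05926.t1 had 141, 126, 55.8 and 22.1 TPM in Stem and 3.20 to 34.8 in the blade, 2.83 higher on the log2 scale (SE 0.58, limma adjusted p = 0.00028), with Stem replicate 4 inside the range of the blade. Lower in Stem were Pis08104.t1, with 34.0, 32.8, 11.3 and 1.12 TPM against 48.9 to 106 in the blade, and Pis18912.t1, with 2.03 to 5.53 against 10.7 to 27.7. Their log2 differences were -2.41 (SE 0.53, limma adjusted p = 0.00051) and -2.18 (SE 0.25, limma adjusted p = 3.0e-07). Without Stem replicate 4 the difference of Pis08104.t1 was -1.53 (limma adjusted p = 0.000469).

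Stolon was then set directly against Stem. Of 149 members 57 were called, 34 higher and 23 lower in Stolon, or 22.8% and 15.4%, where 13.7% and 28.7% of all transcripts were called and 42.4% in either direction. The median log2 difference was -0.00 for the members and -0.18 for all transcripts, and after rescaling 0.16 and -0.00. Without Stem replicate 4 the calls were 24 higher and 28 lower, so the majority of member calls in one direction rested on that library. Calls over all transcripts were not counted without it. Pis03777.t1 was again at the high end, at 2.22 to 12.7 TPM in Stem and 4.87 higher on the log2 scale (SE 0.40, limma adjusted p = 1.7e-08). Pis15724.t1 had 76.1, 75.1, 35.8 and 22.7 TPM in Stolon and 7.18, 2.28, 1.87 and 5.86 in Stem, 3.31 higher on the log2 scale (SE 0.55, limma adjusted p = 7.9e-05). Lower in Stolon were Pis05110.t1, at -4.24 on the log2 scale (SE 0.24, limma adjusted p = 9.9e-11), and Pis05111.t1, at -3.98 (SE 0.29, limma adjusted p = 2.9e-09). All 4 members from Pis19946.t1 and 5 of 6 from Pis03766.t1 were also lower in Stolon than in Stem.

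Within the leaf blade, all members that were called were higher at the base. Basal and Apical differed in 14 of 149 members, or 9.40%, where 1.23% of all those tested were called, with 1.19% higher in Basal and 0.0374% lower. The median log2 difference was 0.48 for the members and -0.01 for all transcripts, and after rescaling 0.57 and 0.02. Fitted on the 8 blade libraries alone, limma called 0 of the 149, where 34 had an unadjusted p under 0.05 and the smallest adjusted p was 0.185. The calls therefore rest on the spread estimated over all 5 regions. No count over all transcripts was made in the fit on blade libraries alone, so the loss cannot be called particular to the members.

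Pis15046.t1 had 64.8, 52.2, 14.0 and 37.6 TPM in Basal, against 7.68, 3.21, 0 and 0 in Apical, which is 3.94 higher on the log2 scale (SE 0.63, limma adjusted p = 0.0023). Pis04460.t1 had 247, 86.1, 35.5 and 50.9 TPM in Basal, against 4.05, 7.90, 7.07 and 1.91 in Apical, or 3.81 higher on the log2 scale (SE 0.53, limma adjusted p = 0.00082). Neither overlapped between the groups. Pis03161.t1, at 3.71, Pis15050.t1, at 3.41, and Pis11318.t1, at 2.49, were also called, as were Pis05110.t1 and Pis05111.t1, at 1.77 and 2.08. That Basal lay below Petiole is fixed by the choice of members. The levels of these members in Stolon ranged from 0.107 TPM in Pis05111.t1 to 1323 TPM in Pis03161.t1.

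**Figure D5:**
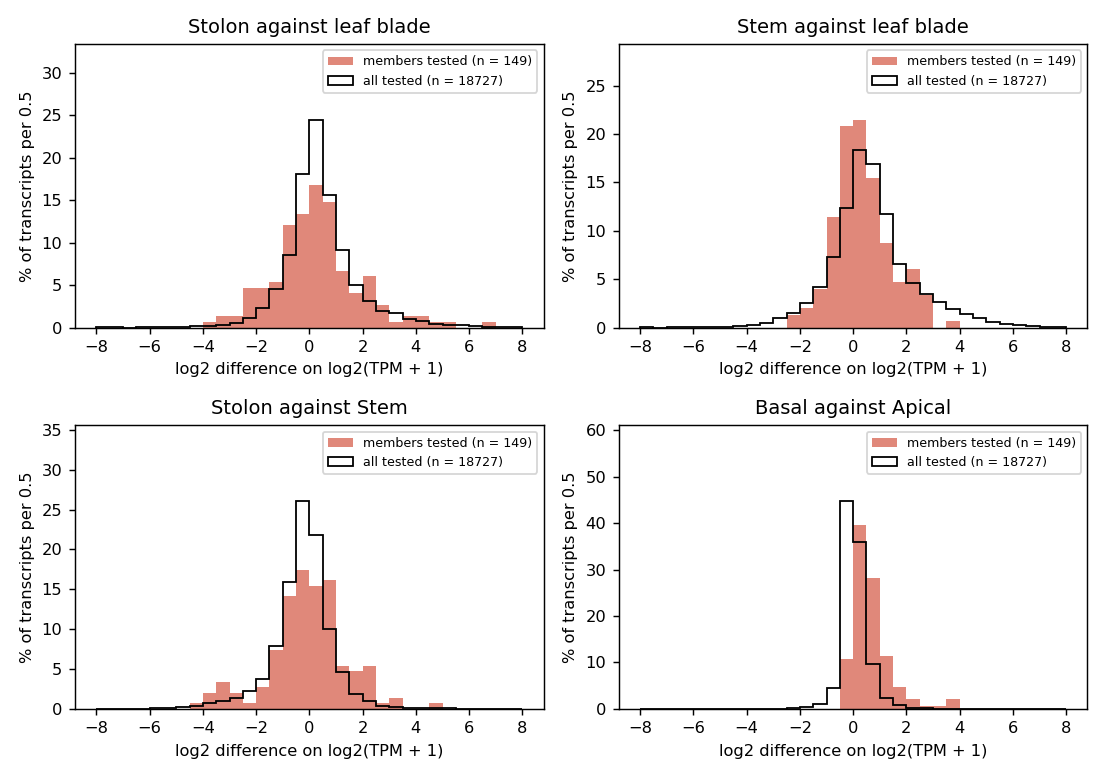
The panels give the distribution of the log2 difference, on log2(TPM + 1), for the 149 members tested (red) and all 18727 transcripts tested (black outline), as the percent of transcripts in bins of width 0.5, with differences beyond 8 in either direction counted in the end bins. Members spread on both sides of 0 for Stolon against leaf blade and Stolon against Stem, and are shifted to the right of all transcripts for Basal against Apical, with medians of 0.48 and -0.01.

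On the deposited scale, Petiole peaks were fewer and smaller than those of the stem under the same minimums. Past a score of 0.7 and a mean of 5 TPM there were 234 transcripts in Petiole, against 310 in Stolon, 2264 in Stem, 35 in Basal and 31 in Apical. The highest score was 3.33 in Petiole, 4.21 in Stolon and 7.43 in Stem, and the median was 1.05, 1.02 and 1.35. In 44.0% of these Petiole transcripts every library of the region lay above all others, against 64.5% for Stolon and 90.5% for Stem. These figures describe the outcome of the rule and were not tested. They also carry the scale of the libraries, with size factors of 1.16 to 1.25 in Stem and 1.06 to 1.08 in Petiole. With rescaled libraries 200 transcripts passed the minimums in Petiole, and the other regions were not counted again.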

How the data were processed

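The authors deposited TPM per transcript for each library, and the submitters' processing notes name Salmon 1.10.0; the sources used here do not give the transcript set, index or filter. Every Pistia row exceeded 2.00 TPM in at least 1 library. Poly-A libraries with fragments of 370 to 420 bp were read as pairs of 150 bp, per the labels. TPM holds no read depth, so no counting interval is given.

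The members and the lists were chosen with earlier results of these data known. The rule and its scores were computed with pandas 2.3.3. The 4 contrasts among the other regions were fitted with limma 3.58.1 in R 4.3.3 on log2(TPM + 1) (moderated variances with a mean trend, no replicate block), for transcripts with at least 1 TPM in at least 4 libraries. P-values were adjusted over all transcripts tested. The fit was also run on simulated data in which libraries varied independently. That run did not include the correlations between same-numbered libraries given below, and no result here rests on it. A log2 difference on this scale understates changes of low transcripts.

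Named members were the 12 highest scores, the 5 highest Petiole means, the 3 on either side of the limit, the 3 largest and 3 smallest Petiole SDs, the 2 largest called differences per contrast and direction with at least 5 TPM, and members with consecutive identifiers; steps of up to 3 were added after values were seen. Others were chosen after their values were seen. The marker lists planned for named genes were not applied. Deviations of same-numbered libraries correlated above 0.1 in every pair for Stem against leaf blade alone (0.152 to 0.184). For Basal against Apical the correlations were 0.253, 0.354 and 0.308 in replicates 1 to 3 and -0.0233 in replicate 4. They were 0.0666 to 0.218 for Stolon against leaf blade and 0.0340 to 0.179 for Stolon against Stem. Alternatives were another pseudocount, no filter, rescaling, a replicate block, fewer regions, region medians, all rows, and leaving out each library.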

Additional observations from a re-analysis of the deposited data

Results flagged for a closer look

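In 26 of 277 groups of 4 libraries, covering the share of TPM in the members and the named transcripts, a single library lay far from the other 3, by a gap beyond Dixon's 95% critical value as a ratio to the group's range; chance flags about 1 in 20 groups. Ratios were taken on log2(TPM + 1) for transcripts and on percent for the share. The members' share in Stem had a ratio of 0.918, with replicate 4 at 0.549% against 1.02% to 1.06% in the other Stem libraries. In Petiole the flagged transcript was Pis12299.t1 (ratio 0.930), with 29.6 TPM in replicate 2 against 63.2 to 66.9.

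The lone library was low in several groups. In Stem it was replicate 4 for Pis12801.t1 (0.985), at 1.38 TPM against 8.64 to 8.85. In Stolon it was replicate 3 for Pis10252.t1 (0.866) and Pis10873.t1 (0.833), at 960 and 18.2 TPM. In Basal it was replicate 1 for Pis11701.t1 (0.892) and Pis04805.t1 (0.966), and replicate 3 for Pis12962.t1 (0.839), Pis03777.t1 (0.921) and Pis18912.t1 (0.892). In Apical it was replicate 4 for Pis18912.t1 (0.861). The lone library was high in Basal replicate 2 for Pis03772.t1 (0.934), in Basal replicate 1 for Pis12801.t1 (0.840), at 16.3 TPM, and in Stem replicate 3 for Pis05110.t1 (0.832), at 29.7 TPM.

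In the other 12 groups the other 3 libraries were listed at 0, which gives a ratio of 1. These were Pis05111.t1, Pis05363.t1, Pis05606.t1, Pis04805.t1 and Pis11702.t1 in Stolon, Pis05363.t1 and Pis10898.t1 in Stem, Pis11539.t1 and Pis05606.t1 in Basal, and Pis15045.t1, Pis03772.t1 and Pis03777.t1 in Apical. Pis05606.t1 is not a member and lies just outside the limit.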

How the results depend on the processing

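The rule chose again 141 of the 150 members with a pseudocount of 0.1, 131 after rescaling, 135 with region medians, 115 with all rows allowed, and 125 to 146 when a library was left out. The members called numbered 61 to 73 for Stolon against leaf blade, 50 to 63 for Stem against leaf blade, 46 to 59 for Stolon against Stem and 11 to 16 for Basal against Apical when each library was left out. Calls over all transcripts were not counted under the alternatives. With the replicate block, which pairs the libraries for Stem against leaf blade, 64 members were called there, 45 higher and 19 lower in Stem, and the block changed no other count by over 1.5 times. With only Basal and Apical in the model limma called 0 members for that contrast, and 0 again with the replicate block added, a setting chosen after seeing the data, where 50 had an unadjusted p under 0.05. Those models have fewer libraries from which to estimate the spread. Of 14 named differences under 26 alternatives each, none reversed and 4 values lost the call, those of Pis15046.t1 and Pis04460.t1 in these 2 models. With a pseudocount of 0.1 the difference of Pis05111.t1 in Stolon against Stem was -6.75 and that of Pis10873.t1 in Stem against leaf blade 6.13. TPM alone limits what can be said of low members, since a value listed at 0 has no known detection limit.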
